A study of Mus musculus with 80 samples.

Results

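Per1, Per2, Nr1d1, Dbp, and Arntl are genes of the circadian clock, and Fkbp5, Tsc22d3, and Sgk1 are genes induced by glucocorticoids. These 8 genes were taken by their symbols from the tables of read counts of a sort comparison and of a cell preparation comparison. They are 8 of the 15919 genes listed in the first table and 8 of the 16000 listed in the second, and all 8 passed the filter on low counts in every fit. They were chosen by name, with earlier results of these data known. By the authors' deposited gene positions on mm10, Per1 lies at chr11:69098956-69109957 (+), Per2 at chr1:91415982-91459328 (-), Nr1d1 at chr11:98767935-98775242 (-), and Dbp at chr7:45705247-45710203 (+). Arntl lies at chr7:113207465-113314126 (+), Fkbp5 at chr17:28398753-28486149 (-), Tsc22d3 at chrX:140539529-140600522 (-), and Sgk1 at chr10:21882184-21999902 (+). All 80 libraries came from the brains of Cx3cr1(Jung)-cre/Ert2+;NuTRAP+ mice, in which tamoxifen, injected intraperitoneally at 100 mg/kg a day at approximately 3 months of age, starts the tagging of ribosomes with eGFP. Input is the RNA before the ribosomes are pulled down, and TRAP (translating ribosome affinity purification) is the RNA recovered in the pull-down of the tagged ribosomes. Because the Cx3cr1 promoter drives the Cre recombinase, border macrophages and other cells with an active Cx3cr1 gene can carry the tag besides microglia.

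The sort comparison holds 48 libraries of RNA-Seq. Tissue was not dissociated, and Cell is the suspension made from brain by papain-based digestion at warm temperature with mechanical dissociation. The 4 sorts started from such suspensions: CD11b magnetic beads (autoMACS), the same beads followed by a cartridge sorter (autoMACS to Tyto), the cartridge sorter alone (Tyto), and a cytometer (FACSAria). Tissue, Cell, autoMACS, and FACSAria have 4 mice each, autoMACS to Tyto has 3, and Tyto has 5, each with an Input and a TRAP library. Mice 66, 67, and 73 went through both sorts with beads and mice 69, 945, and 991 through both Tyto and FACSAria, so that the 16 sorted libraries of a fraction came from 10 mice. The cell preparation comparison holds 32 libraries, from 4 mice a group, of Tissue, of Cell (-) Inhib, of Cell (+) Inhib, in which the transcription and translation inhibitors actinomycin D, triptolide, and anisomycin were present, and of Dounce. Dounce is a mechanical dissociation without enzymes, in the cold. Tissue and Cell of the sort comparison came from the same mice (946, 947, 948, and 949), as did Cell (-) Inhib and Cell (+) Inhib (156, 157, 1361, and 1362), whereas the Dounce mice (179, 180, 181, and 182) gave no other library. The Tissue libraries of the cell preparation comparison are further samples of mice 946, 947, 948, and 949, and whether they hold the same RNA is not given in the sources used here, so that they are not taken as independent. The time of day at which each brain was collected is not given in the sources used here. A difference between groups of different mice and a difference in the time of collection therefore cannot be told apart. This holds for the genes of the clock and for those induced by glucocorticoids.

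In the circadian clock, BMAL1 (the product of Arntl) and its partner CLOCK bind E-box sequences and switch on the genes Per1, Per2, Nr1d1, and Dbp. The PER proteins then repress BMAL1 and CLOCK, and the nuclear receptor REV-ERB alpha (the product of Nr1d1) represses Arntl, so that Arntl and Nr1d1 peak at opposite times of day. Glucocorticoids, the steroid hormones of stress and of the daily active phase, bind the glucocorticoid receptor, which acts on glucocorticoid response elements of the DNA and induces Fkbp5, Tsc22d3, Sgk1, and Per1, the gene at which both systems meet.

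Library depth, as the sum of counts over the listed genes, ranged from 7129464 to 20168116 in the sort comparison and from 2471448 to 14650287 in the cell preparation comparison, and was lowest in Dounce-TRAP (2471448 to 4724538). Levels are given as CPM, the counts relative to library depth after TMM normalization, within a table only, since the tables were normalized separately. CPM are not divided by gene length and are not compared between genes. As a check of the labelled cells, the summed level of 5 microglial markers (Tmem119, P2ry12, Siglech, Cx3cr1, and Fcrls) was 69.4 to 109 CPM in Tissue-Input, 1805 to 2140.4 CPM in Tissue-TRAP, 1439 to 1979.7 CPM in Cell-Input, and 11563 to 13745 CPM in Cell-TRAP, and no marker was at 0 in all libraries of a group. The sum of 6 neuronal markers was 4656 to 5478 CPM in Tissue-TRAP, 106 to 303 CPM in Cell-TRAP, and 3.28 to 6.39 CPM in Tyto-TRAP, so that Tissue-TRAP held RNA of neuronal genes at a level that the sorted cells did not. In Tissue-Input the neuronal sum was 4813 to 5157 CPM, so that the pull-down from tissue did not lower it. The astrocytic sum was 2929 to 3156 CPM in Tissue-Input and 3289 to 5122 CPM in Tissue-TRAP. The oligodendrocytic sum was lower in Tissue-TRAP, at 622 to 871 CPM against 2821 to 3378 CPM in Tissue-Input. Tissue-TRAP is therefore not RNA of microglia alone. The sum of 4 markers of border macrophages was 107 to 128 CPM in Tissue-TRAP, 641 to 1738 CPM in Cell-TRAP, and 662 to 1283 CPM in Tyto-TRAP, and that of the 3 measured of 4 markers of blood cells was 15.5 to 33.7 CPM, 27.2 to 87.4 CPM, and 1.16 to 10.01 CPM in these groups, with S100a8 at 0 in Tissue-TRAP. A sorted library, autoMACS-Input of mouse 72, stood below its group in microglial markers, with 8355 CPM against 13545 to 14274 CPM in the other autoMACS-Input libraries. In bulk RNA, fewer cells of a type and less RNA per cell cannot be told apart.

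The promoters of Sgk1, Per1, and Fkbp5 are shown because they hold the binding sequences of these systems. On GRCm38.p6, the assembly of mm10, RefSeq gives 16 promoters for 7 of the 8 genes. The 3 with an E-box are printed, each as the 250 bases before the start of transcription. On both strands, the E-box CACGTG, the D-box TTATGTAA, the AGGTCA core of the RORE (the element that REV-ERB alpha binds), the CRE TGACGTCA, and the glucocorticoid response element (AGAACA, any 3 bases, TGTTCT) were looked for. No match overlapped another. The capitals mark the matches, and TGACCT is AGGTCA on the other strand. The Sgk1 promoter is at chr10:21993640-21993889 (+), the Per1 promoter at chr11:69098699-69098948 (+), and the Fkbp5 promoter at chr17:28486150-28486399 (-).
Sgk1: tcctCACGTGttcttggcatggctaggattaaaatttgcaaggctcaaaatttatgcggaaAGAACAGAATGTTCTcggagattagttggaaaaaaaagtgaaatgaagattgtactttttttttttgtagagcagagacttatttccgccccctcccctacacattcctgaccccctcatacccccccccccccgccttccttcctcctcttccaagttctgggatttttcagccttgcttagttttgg
Per1: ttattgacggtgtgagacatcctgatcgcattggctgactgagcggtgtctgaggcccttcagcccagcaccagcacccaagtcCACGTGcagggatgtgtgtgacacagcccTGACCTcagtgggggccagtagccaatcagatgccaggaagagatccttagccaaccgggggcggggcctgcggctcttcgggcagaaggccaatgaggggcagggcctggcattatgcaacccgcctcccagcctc
Fkbp5: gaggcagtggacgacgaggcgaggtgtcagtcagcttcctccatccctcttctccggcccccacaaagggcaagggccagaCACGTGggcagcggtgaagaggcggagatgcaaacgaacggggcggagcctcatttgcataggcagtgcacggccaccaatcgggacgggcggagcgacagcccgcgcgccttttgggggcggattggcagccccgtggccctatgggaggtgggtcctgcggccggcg

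This Sgk1 promoter, 1 of 6 that RefSeq gives for the gene, held the E-box with its first base 246 bases before the start and the complete glucocorticoid response element, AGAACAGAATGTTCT, at 189 bases before it. That element was found in 3 of 32851 mouse promoters of the same length of 300 bases, 250 before and 50 after the start (0.00913%). The Per1 promoter held an E-box at 166 bases and the RORE core at 137 bases before the start, and the Fkbp5 promoter held an E-box at 169 bases. Only the core was searched, so that its match is not shown to be a whole RORE. An E-box was found in 7.15% of all promoters, the RORE core in 16.3%, a D-box in 0.938%, and a CRE in 1.79%. No D-box and no CRE was found in any of the 16 windows. The RORE core was also found in an Arntl window, at base 32 after the start, and in other Sgk1 windows, at 63 and 101 bases before the start. The windows of Nr1d1, Dbp, and Tsc22d3 and the other Per1 window held none of the 5 sequences searched, which says only that these letters are not in them. Promoters of Per2 are not shown. A match is a description of the sequence and not a measurement of binding.

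In the sort comparison, all 3 glucocorticoid-induced genes were higher, and Nr1d1 and Dbp lower, in the TRAP fraction of the cell suspension than in that of tissue from the same mice. A gene was called when its fold change was over 2 at a Benjamini-Hochberg adjusted p under 0.1 by edgeR's quasi-likelihood test. In Cell-TRAP against Tissue-TRAP, 6 of the 8 genes were called, against a background of 54.3% of the 14979 genes tested, of which 25.1% were called higher and 29.3% lower in Cell-TRAP. Of the 8 genes, 4 were called higher and 2 lower. Among all called genes the share that was higher was 46.1% with TMM normalization, 35.004% with DESeq2's size factors, which moved the median over the genes tested by -0.33 on the log2 scale, and 31.8% with limma on the deposited log2 values.

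Sgk1 encodes a kinase that controls ion transport and cell survival. In mice 946, 947, 948, and 949 in that order, which holds for all Tissue and Cell values below, Sgk1 was at 58, 62.6, 78.4, and 76.8 CPM in Tissue-TRAP and at 744, 1078, 972, and 957 CPM in Cell-TRAP. The lowest Cell-TRAP value stood far above the highest Tissue-TRAP value, and each mouse showed a rise of 12.4 to 17.2-fold. The log2 fold change was 3.78 ± 0.13 (SE, n = 4 against 4, edgeR, adjusted p = 1.97e-18), which is 13.7-fold.

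Tsc22d3 encodes GILZ, a leucine zipper protein with anti-inflammatory action. It was at 157, 153, 128, and 114 CPM in Tissue-TRAP and at 457, 933, 573, and 553 CPM in Cell-TRAP, with no overlap and the highest value in mouse 947. It rose by 2.20 ± 0.20 on the log2 scale (edgeR, adjusted p = 2.51e-10).

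Fkbp5 encodes FKBP51, a co-chaperone that lowers the affinity of the glucocorticoid receptor for its hormone. Its level was 141, 147, 117, and 113 CPM in Tissue-TRAP and 730.1, 922, 462, and 459 CPM in Cell-TRAP. Mice 946 and 947 were higher than mice 948 and 949 in both groups. This was a log2 fold change of 2.33 ± 0.46 (edgeR, adjusted p = 6.59e-05).

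Per1, the clock repressor that also responds to glucocorticoids, had the smallest called rise in TRAP. It was at 103, 85.2, 73.8, and 68.4 CPM in Tissue-TRAP and at 194, 265, 158, and 152 CPM in Cell-TRAP, a rise in each of the 4 mice of 1.88 to 3.11-fold. The log2 fold change was 1.23 ± 0.35 (edgeR, adjusted p = 0.00238). It ran from 0.78 to 1.36 over 16 other ways of processing, and 4 of these, among them the size factors of DESeq2 (0.90), ended the call by a fold change under 2. Between Tissue-TRAP and Cell-TRAP the marker sums of microglia and of border macrophages were higher in Cell-TRAP, as given above, and that of 6 endothelial markers went from 128 to 194 CPM to 805 to 853 CPM; their part in the higher Sgk1, Tsc22d3, Fkbp5, and Per1 was not tested.

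Nr1d1 was at 177, 147, 167, and 175 CPM in Tissue-TRAP and at 53.3, 70.9, 57, and 55.1 CPM in Cell-TRAP, and Dbp, which encodes a clock output factor that binds D-boxes, was at 79, 65.3, 83.4, and 76 CPM and 26.4, 35.5, 32.5, and 45.2 CPM. For both genes every Cell-TRAP library was below every Tissue-TRAP library. The log2 fold change was -1.48 ± 0.27 for Nr1d1 (adjusted p = 2.42e-05) and -1.11 ± 0.16 for Dbp (adjusted p = 5.36e-07, both edgeR). The neuronal marker sum fell between the same groups, as given above, and that of 6 astrocytic markers went from 3289 to 5122 CPM to 1594 to 1793 CPM; their part in the lower Nr1d1 and Dbp was not tested.

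The other pair of clock genes was not called. Arntl was at 24.4, 26.7, 26.9, and 20.04 CPM in Tissue-TRAP and 17.1, 14.4, 17, and 15.9 CPM in Cell-TRAP, with groups that did not overlap and a log2 fold change of -0.59 ± 0.13 that passed the adjusted p (edgeR, 1.52e-04) but was under 2-fold. Per2, the other PER repressor, was at 16.3, 14.9, 11.3, and 13.2 CPM and 11, 12, 8.77, and 13 CPM, and these groups overlapped (-0.30 ± 0.25, edgeR, adjusted p = 0.259).

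**Figure D1:**
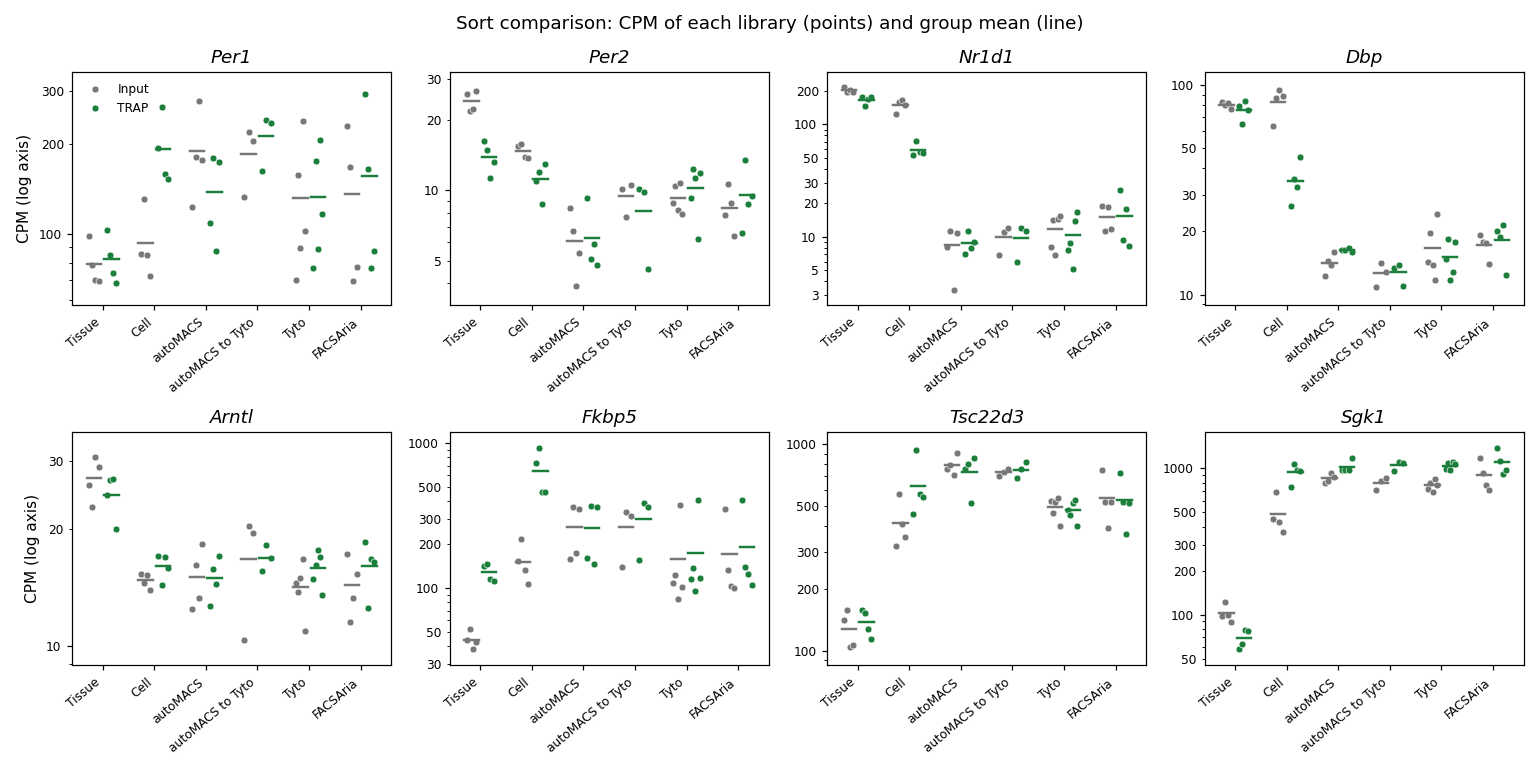
Level of each of the 8 genes in every library of the sort comparison, as CPM on a log axis, by preparation along the horizontal axis and by fraction in colour; each point is 1 library and each short line is a group mean. Sgk1 and Tsc22d3 stand higher in every preparation of dissociated cells than in tissue, whereas Nr1d1 and Dbp in TRAP step down from tissue to cells and again to the sorted cells, and in Input Dbp overlaps between tissue and cells and is lower in the sorted cells.

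In the Input fraction, which holds the RNA of all cells of the sample, the glucocorticoid-induced genes rose as well, and the clock genes were not called. In Cell-Input against Tissue-Input 3 of the 8 genes were called, against 46% of all genes tested, 28.5% higher and 17.6% lower in Cell-Input. Sgk1 went from 97.6, 123, 98.8, and 88.7 CPM in Tissue-Input to 453, 688, 430.3, and 368 CPM in Cell-Input (2.35 ± 0.17, edgeR, adjusted p = 1.87e-11). Tsc22d3 went from 141, 158, 104, and 107 CPM to 320.4, 573, 412, and 356 CPM (1.80 ± 0.19, edgeR, adjusted p = 1.07e-08). Neither gene overlapped between the groups. Fkbp5 went from 43.7, 52.5, 38, and 42.7 CPM to 154, 216, 133, and 107 CPM (1.88 ± 0.46, edgeR, adjusted p = 8.86e-04). Nr1d1 was at 217, 194, 202, and 195 CPM in Tissue-Input and 123, 159, 165, and 149.6 CPM in Cell-Input (-0.34 ± 0.25, edgeR, adjusted p = 0.222). It was lower in 4 of 4 mice, without overlap. With the mouse as a block its log2 fold change was -0.48 (edgeR, adjusted p = 0.00221), under 2-fold. Dbp was at 83.3, 80.6, 81.8, and 76.4 CPM and 63.6, 86.2, 94.2, and 88.5 CPM, with overlapping groups (0.14 ± 0.17, edgeR, adjusted p = 0.449). Dbp thus differed between Cell and Tissue by over 2-fold in TRAP, while in Input its values overlapped. Per1 (0.33), Per2 (-0.62), and Arntl (-0.77) were under 2-fold on the log2 scale. Per2 and Arntl nevertheless passed the adjusted p and were lower in 4 of 4 mice, without overlap between the groups. Per2 was at 21.8 to 26.6 CPM in Tissue-Input and 13.7 to 15.8 CPM in Cell-Input. Arntl was at 22.9 to 30.6 CPM and 14 to 15.4 CPM in the same order. The marker sum of microglia was higher in Cell-Input than in Tissue-Input, as given above, and so were those of endothelium, from 46.5 to 60.9 CPM to 865 to 1616 CPM, blood cells, from 79.9 to 137 CPM to 1764 to 2717 CPM, and border macrophages, from 4.49 to 8.66 CPM to 93.2 to 207 CPM. The sum of 6 oligodendrocytic markers went from 2821 to 3378 CPM to 8117 to 12224 CPM, that of astrocytes from 2929 to 3156 CPM to 6129.9 to 8146 CPM, and that of neurons from 4813 to 5157 CPM to 365 to 886 CPM; their part in these values was not tested.

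Whether the change from tissue to cells differed between the fractions was tested as an interaction in a fit of all 48 libraries. It was called for 3 of the 8 genes, against 35.2% of all genes. The ratio of the TRAP fold change to the Input fold change was 1.51 ± 0.21 on the log2 scale for Sgk1 (edgeR, adjusted p = 7.57e-08), -1.17 ± 0.23 for Dbp (adjusted p = 4.76e-05), and -1.06 ± 0.38 for Nr1d1 (adjusted p = 0.0164). For Per1 it was 0.98 ± 0.52 (adjusted p = 0.106), for Fkbp5 0.53 ± 0.66 (adjusted p = 0.508), and for Tsc22d3 0.48 ± 0.27 (adjusted p = 0.131, all edgeR). The larger rise of Sgk1 and the fall of Dbp and Nr1d1 in the TRAP fraction thus passed the test of the difference itself. The median log2 interaction of all genes was -0.29, and DESeq2's size factors moved it by -0.33. Among all called genes, 16.3% had an interaction above 0 with TMM normalization and 5.23% with the size factors, and under both Sgk1 was above 0 and Dbp and Nr1d1 were below.

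Of a wider list of clock genes that leaves out the 5 members, 3 of 19 were called higher and 8 lower in Cell-TRAP than in Tissue-TRAP, beside the 25.1% and 29.3% of all genes, with a median log2 fold change of -0.21 against -0.01 for all genes. Npas2, a paralog of Clock used in the forebrain, went from 18.6 to 2.10 mean CPM (-3.14 ± 0.34, edgeR, adjusted p = 1.72e-08). Cry2, which encodes a cryptochrome repressor, changed by -2.71 ± 0.17 on the log2 scale (edgeR, adjusted p = 1.64e-13). Of 23 further genes known as glucocorticoid targets, 10 were called higher and 3 lower, with a median of 0.89 on the log2 scale. The phosphatase gene Dusp1 rose from 22.1 to 1631 mean CPM (6.22 ± 0.16, edgeR, adjusted p = 1.78e-20), and Txnip, which encodes a regulator of thioredoxin and of glucose uptake, rose by 3.87 ± 0.10 (edgeR, adjusted p = 2.11e-20). Mertk, a receptor for the uptake of dying cells that microglia carry, rose by 3.41 ± 0.08 (edgeR, adjusted p = 9.08e-21). Of 13 genes of the receptor, its chaperones, and relatives of the members, 3 were called higher and 1 lower, beside the same shares. Nr3c1, the glucocorticoid receptor itself, went from 88.7 to 338 mean CPM (1.94 ± 0.07, edgeR, adjusted p = 4.80e-18), and Hsp90aa1, its chaperone, fell (-1.60 ± 0.15, edgeR, adjusted p = 7.74e-10). In Input, 18 of the 24 glucocorticoid targets were called higher and 0 lower, beside 28.5% of all genes called higher, with a median of 1.92 against 0.17 for all genes, and of the 19 clock genes 0 were called higher and 3 lower, beside 17.6% of all genes called lower. Other TRAP comparisons against tissue did not show the 23 targets mostly higher. In Cell (-) Inhib-TRAP of the cell preparation comparison, 6 were called higher and 7 lower, with a median of -0.07 against -0.13 for all genes. In the sorted TRAP libraries, 6 were called higher and 11 lower, with a median of -0.85 against -0.14. All genes called in either direction were 53.1% and 62.8% there.

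The sorted cells kept the high Sgk1 and Tsc22d3 of the suspension and stood lower still in Nr1d1 and Dbp. With the 16 sorted TRAP libraries in 1 contrast, each sort with the same weight, 4 of the 8 genes were called against Tissue-TRAP, beside 62.8% of all genes, and 3 of 8 against Cell-TRAP, beside 24.4% of all genes. Both comparisons share the sorted libraries, and the fits count the libraries of a mouse sorted by more than 1 method as separate. With the sorted counts of a mouse summed to 1 library, an alternative chosen after seeing the data, the same 4 and 3 genes were called, for Nr1d1 with -3.90 ± 0.25 against Tissue-TRAP and -2.39 ± 0.25 against Cell-TRAP. Of all genes called against Tissue-TRAP, 41.2% were higher in sorted cells by edgeR and 29.9% by limma.

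Nr1d1 was at 6.97, 11.2, 7.998, and 8.96 CPM in autoMACS-TRAP, 5.997, 11.9, and 11.2 CPM in autoMACS to Tyto-TRAP, 8.70, 5.16, 13.7, 16.7, and 7.60 CPM in Tyto-TRAP, and 9.29, 17.7, 8.22, and 26 CPM in FACSAria-TRAP, in the order of mouse number. Every sorted library was below every Cell-TRAP library, whose lowest value was 53.3 CPM. The log2 fold change of sorted cells was -2.48 ± 0.20 against Cell-TRAP (edgeR, adjusted p = 1.11e-10) and -3.96 ± 0.19 against Tissue-TRAP (adjusted p = 4.29e-16). Dbp ranged from 10.9 to 21.5 CPM over the sorted TRAP libraries, with a median of 16.1 CPM, also below all Cell-TRAP values, with -1.20 ± 0.12 against Cell-TRAP (edgeR, adjusted p = 4.29e-09) and -2.31 ± 0.11 against Tissue-TRAP (adjusted p = 3.58e-16). Between Cell-TRAP and autoMACS-TRAP the astrocytic sum went from 1594 to 1793 CPM to 140.1 to 203 CPM and the endothelial sum from 805 to 853 CPM to 69.7 to 96.7 CPM, while that of border macrophages was 641 to 1738 CPM in Cell-TRAP and 528 to 963 CPM in autoMACS-TRAP, with overlap, and that of microglia was 15566 to 16581 CPM in autoMACS-TRAP. Their part in the lower Nr1d1 and Dbp was not tested.

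Sgk1 did not differ detectably between sorted and unsorted cells in TRAP (0.15 ± 0.09, edgeR, adjusted p = 0.196), and against Tissue-TRAP its log2 fold change was 3.92 ± 0.12 (adjusted p = 4.18e-20). The group means of Sgk1 were 1030.0 ± 104 CPM in autoMACS-TRAP (SD, n = 4), 1054 ± 75.6 CPM in autoMACS to Tyto-TRAP (n = 3), 1045 ± 56.2 CPM in Tyto-TRAP (n = 5), and 1098 ± 203 CPM in FACSAria-TRAP (n = 4), and neighbouring groups overlapped. Tsc22d3 likewise was -0.06 ± 0.15 against Cell-TRAP (edgeR, adjusted p = 0.757) and 2.14 ± 0.18 against Tissue-TRAP (adjusted p = 2.35e-11). Fkbp5 was the exception among the 3 glucocorticoid-induced genes. It was called lower in sorted cells than in Cell-TRAP (-1.53 ± 0.32, edgeR, adjusted p = 2.44e-04), and its 0.79 ± 0.37 against Tissue-TRAP was under 2-fold. Per1, also under 2-fold against Tissue-TRAP (0.91 ± 0.29), was called on leaving out Tissue mouse 946 (1.04). The Cell and sorted libraries came from different mice, and for Fkbp5, whose level differs widely between mice as given below, mouse and preparation cannot be told apart.

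Against Tissue-Input, 6 of the 8 genes were called in the sorted Input libraries, beside 64.2% of all genes. Sgk1 (2.89 ± 0.16), Tsc22d3 (2.17 ± 0.17), and Fkbp5 (2.10 ± 0.41) were higher, and Nr1d1 (-4.32 ± 0.18), Dbp (-2.56 ± 0.12), and Per2 (-1.69 ± 0.14) lower (edgeR). The same 6 genes were called with 1 summed library for each mouse. From Tissue-Input to the Input libraries of the 4 sorts the microglial marker sum went from 69.4 to 109 CPM to 8355 to 15231 CPM. The neuronal sum went from 4813 to 5157 CPM to 9.60 to 37.7 CPM. Their part in these values was not tested.

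In Input, where sorting removes the other cells of the suspension, 3 of the 8 genes were called in sorted cells against Cell-Input, beside 51.8% of all genes. Nr1d1 went from 123 to 165 CPM in Cell-Input to 6.85 to 15.2 CPM in Tyto-Input and was -3.98 ± 0.18 over the sorts (edgeR, adjusted p = 8.53e-16). Dbp was -2.70 ± 0.12 (adjusted p = 9.07e-16) and Per2 -1.07 ± 0.14 (adjusted p = 2.87e-07, both edgeR). From Cell-Input to Tyto-Input the oligodendrocytic marker sum went from 8117 to 12224 CPM to 217 to 663 CPM. The astrocytic sum went from 6129.9 to 8146 CPM to 195 to 402 CPM, and the endothelial sum from 865 to 1616 CPM to 79.9 to 139 CPM. The neuronal sum went from 365 to 886 CPM to 15 to 25.7 CPM, and the blood cell sum was also lower. The microglial sum rose from 1439 to 1979.7 CPM to 11854 to 14722 CPM, and the border macrophage sum was also higher. Their part in these values was not tested. In the autoMACS-Input library of mouse 72, low in microglial markers, Nr1d1 was at 3.34 CPM, the lowest value of its group, and Per1 at 277 CPM, the highest.

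In the TRAP fraction, 0 of 19 genes of the wider clock list were called higher and 5 lower in sorted cells than in Cell-TRAP, and of the 23 glucocorticoid targets 0 were called higher and 13 lower, beside 0.841% of all genes called higher and 23.6% lower. Npas2 was at 2.10 mean CPM in Cell-TRAP and at 0 to 0.145 mean CPM in the 4 sorts. Mfsd2a, a lipid transporter of brain endothelium, was at 32.5 mean CPM in Cell-TRAP and at 0.0985 to 0.566 mean CPM in the sorts.

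Across the sorts themselves, no member was called in either fraction by edgeR's F test, beside 4.18% of all genes in TRAP and 7.40% in Input. At an unadjusted p under 0.05 there were 2 members in TRAP and 2 in Input, limma called 0, and Tsc22d3 passed the adjusted p in both fractions (0.0207 in TRAP and 0.0309 in Input, edgeR) but stayed under 2-fold between the highest and the lowest sort. Tsc22d3 was 734 ± 148 CPM in autoMACS-TRAP, 753 ± 67.2 CPM in autoMACS to Tyto-TRAP, 478 ± 53.8 CPM in Tyto-TRAP, and 536 ± 148 CPM in FACSAria-TRAP (SD). The sorts that began with magnetic beads used mice 66, 67, 72, and 73 only, and the other sorts used other mice, so that bead and mouse cannot be told apart, and no fit with the mouse as a term can be made across all 4 sorts. Fkbp5 was called across the sorts on leaving out mouse 823 from Tyto, with a log2 distance between the highest and the lowest sort of 1.36 in TRAP (adjusted p = 0.0511) and 1.38 in Input (adjusted p = 0.0564, both edgeR).

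Within a sort, the level of Fkbp5 followed the mouse. Among the sorted TRAP libraries, Fkbp5 was at 160.1, 369, 147, and 360.3 CPM in autoMACS (mice 66, 67, 72, and 73) and at 156, 388, and 361 CPM in autoMACS to Tyto (mice 66, 67, and 73). It was at 138, 95.6, 403, 117, and 116 CPM in Tyto (mice 69, 822, 823, 945, and 991) and at 140.1, 124, 105, and 405 CPM in FACSAria (mice 69, 945, 991, and 992). In TRAP, mice 67, 73, 823, and 992 stood at 360.3 CPM or more, and no other mouse was above 160.1 CPM. For the 6 mice sorted by more than 1 method, the highest of a mouse's libraries, Input included, was 1.14 to 1.22 times its lowest, whereas the means of the 10 mice lay 4.34-fold apart. The corresponding distance between mouse means was 2.13-fold for Tsc22d3, against 1.08 to 1.19-fold within a mouse, 3.34-fold for Per1 (1.11 to 1.68-fold within a mouse), 3.97-fold for Nr1d1 (1.09 to 1.63-fold), and 1.65-fold for Dbp (1.099 to 1.49-fold). For Per2 it was 2.39-fold (1.21 to 2.28-fold), for Sgk1 1.53-fold (1.35 to 1.41-fold), and for Arntl 1.40-fold (1.13 to 1.53-fold), so that the libraries of 1 mouse, both fractions together, lay nearly as far apart as the mouse means for these 3 genes, or farther. For Sgk1 the distance within a mouse includes that between the fractions. Within TRAP alone, Sgk1 ranged most in mouse 945, from 920.0 to 1064 CPM, and mouse means ran from 972 to 1374 CPM. Within Input it ranged most in mouse 69, from 795 to 933 CPM, and mouse means ran from 689.6 to 1173 CPM. The highest mean was that of mouse 992, with 1 library in each fraction. Per1 was also high in mice 67, 73, 823, and 992, at 174 to 293 CPM in TRAP, but mouse 69 reached 175 CPM as well. These mice were singled out after their values were seen, and no test was made of them.

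**Figure D2:**
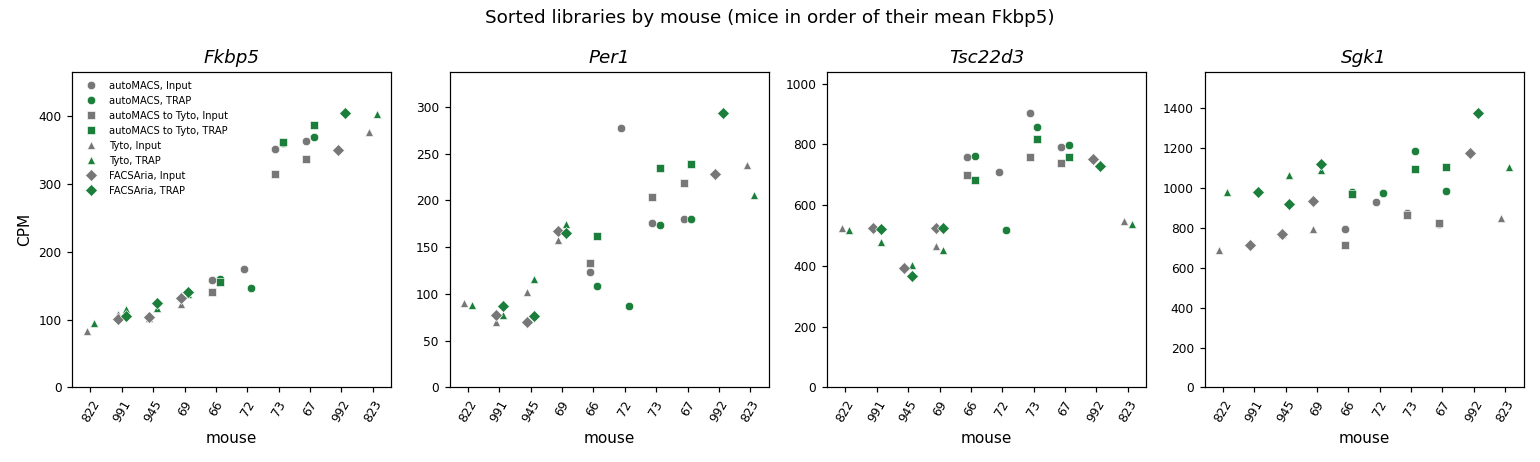
Level of Fkbp5, Per1, Tsc22d3, and Sgk1 in the sorted cells of each of the 10 mice, as CPM on an axis from 0, with mice along the horizontal axis in the order of their mean Fkbp5, 1 point for each library, fraction in colour and sort as the shape of the point. Fkbp5 shows 2 levels, with mice 67, 73, 823, and 992 above all others whichever sort they went through, whereas Sgk1 shows no such split.

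Fkbp5 was the member that differed by over 2-fold between TRAP and Input in tissue, and no member did so in sorted cells. In Tissue-TRAP against Tissue-Input only Fkbp5 of the 8 genes was called, beside 11.1% of all genes, at 43.7, 52.5, 38, and 42.7 CPM in Input and 141, 147, 117, and 113 CPM in TRAP, without overlap (1.55 ± 0.48, edgeR, adjusted p = 0.0119). Per2 (-0.80 ± 0.22, adjusted p = 0.00370) and Sgk1 (-0.56 ± 0.15, adjusted p = 0.00244, both edgeR) were lower in TRAP without overlap and passed the adjusted p, but were under 2-fold. Sgk1, for example, was at 88.7 to 123 CPM in Tissue-Input and 58 to 78.4 CPM in Tissue-TRAP. Among the genes called there, 83.1% were higher in TRAP by edgeR and 70.2% by limma. The Tissue libraries of the cell preparation table gave 1.73 ± 0.23 for it (adjusted p = 2.46e-07) and called no other member (Per2 -0.73 and Sgk1 -0.43), beside 10.5% of all genes. In Cell-TRAP against Cell-Input 4 of the 8 were called, beside 47.6% of all genes: Fkbp5 (2.08 ± 0.48) and Per1 (1.04 ± 0.37) higher and Nr1d1 (-1.34 ± 0.27) and Dbp (-1.25 ± 0.17) lower in TRAP. The call of Per1 was lost in 8 of 11 other ways of processing, among them leaving out any of the 4 mice, with values of 0.54 to 0.82. Leaving out a mouse also moved the median over the genes tested, by -0.24 to -0.27 on the log2 scale, and DESeq2's size factors moved it by -0.41. In this comparison 35.2% of the called genes were higher in TRAP by TMM and 20.96% by the size factors. In the sorted cells no member was called between the fractions by edgeR, beside 18.9% of all genes, with 1 member at an unadjusted p under 0.05 and 0 called by DESeq2 and by limma. That member, Sgk1, was higher in TRAP by 0.35 ± 0.07 (adjusted p = 8.48e-05), under 2-fold. Over the 16 sorted libraries of each fraction its values ran from 689.6 CPM to 1173 CPM in Input, with a median of 807 CPM, and from 920.0 CPM to 1374 CPM in TRAP, with a median of 1026 CPM. In each of the 10 mice the lowest TRAP value of Sgk1 was above the highest Input value.

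In the cell preparation comparison, the rise of Sgk1 and Tsc22d3 in cells made without inhibitors was smaller in cells of the same mice made with inhibitors. This comparison is the one the study made to see what the inhibitors hold back. In Cell (+) Inhib-TRAP against Cell (-) Inhib-TRAP, 2 of the 8 genes were called, beside 0.637% of the 14753 genes tested.

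In mice 156, 157, 1361, and 1362 in that order, Sgk1 was at 893, 996, 1033, and 638 CPM in Cell (-) Inhib-TRAP and at 318, 307, 288, and 250.1 CPM in Cell (+) Inhib-TRAP. Every mouse was lower with inhibitors, by 2.55 to 3.59-fold, and the groups did not overlap. The log2 fold change was -1.61 ± 0.14 (SE, n = 4 against 4, edgeR, adjusted p = 5.46e-07). Tsc22d3 was at 729, 891, 693, and 991 CPM without and at 369, 331, 231, and 316 CPM with inhibitors, lower in every mouse by 1.97 to 3.13-fold (-1.40 ± 0.16, edgeR, adjusted p = 2.90e-05). With the mouse added as a block, which raised the number of all genes called from 94 to 150, Sgk1 and Tsc22d3 were the members called again. The microglial marker sum was 12701 to 15185 CPM without and 13808 to 14438 CPM with inhibitors, and the endothelial sum 529 to 1199 CPM and 699 to 1133 CPM, with overlap in both.

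Per1 was at 200.2, 164, 181, and 321 CPM without and 134, 128, 112, and 167 CPM with inhibitors, lower in 4 of 4 mice, but the groups overlapped and the gene was not called (-0.67 ± 0.19, edgeR, adjusted p = 0.103). Fkbp5 was at 321, 289.8, 217, and 373 CPM and 295, 228, 164, and 233 CPM, also lower in 4 of 4 mice and not called (-0.38 ± 0.22, edgeR, adjusted p = 0.734). Among the clock genes Nr1d1 was -0.36 ± 0.23 and Arntl -0.47 ± 0.20, each lower in 4 of 4 mice, and Dbp (-0.05 ± 0.27) and Per2 (-0.10 ± 0.31) were lower in 2 of 4, none of them called (edgeR).

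**Figure D3:**
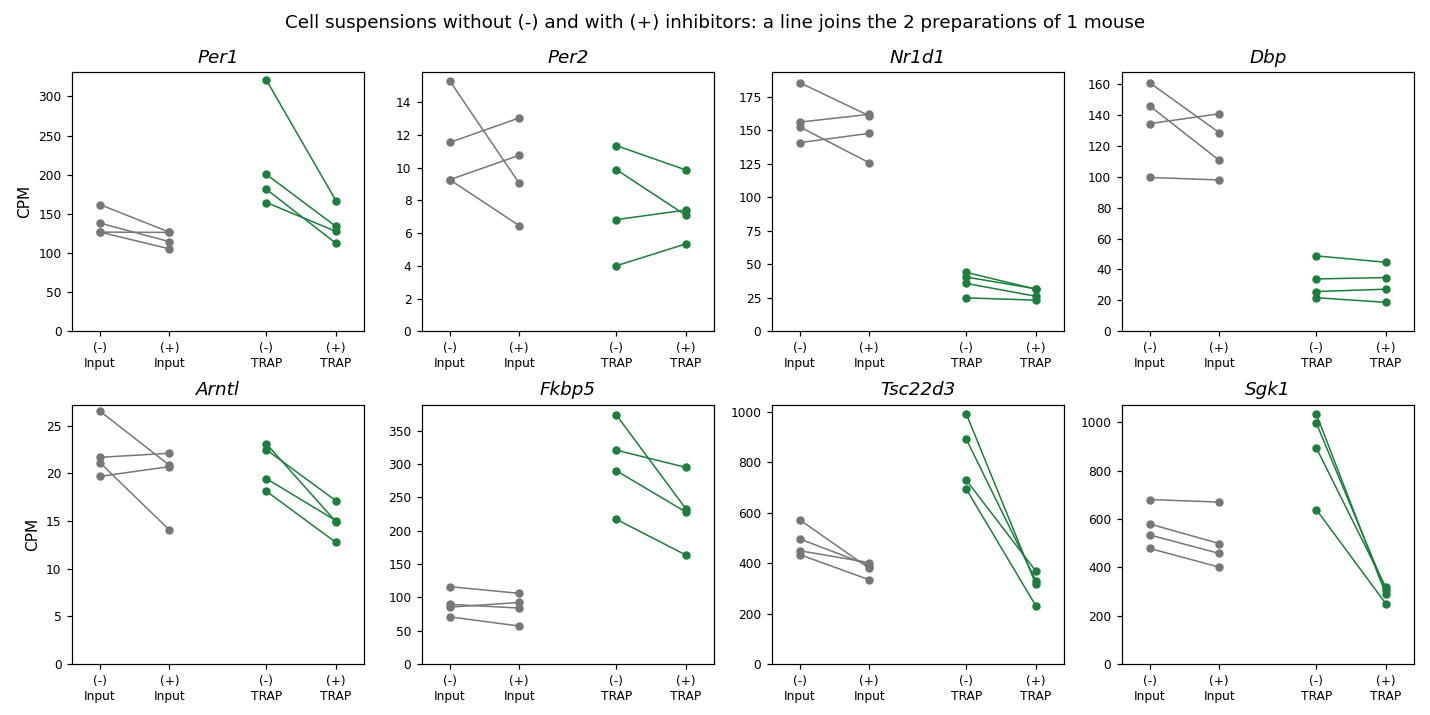
Level of each of the 8 genes in the TRAP and Input libraries of cells made without and with inhibitors, as CPM on axes from 0, with a line for each of the 4 mice. In TRAP the lines of Sgk1 and Tsc22d3 fall in all 4 mice and end below every value without inhibitors, those of Per1, Fkbp5, Nr1d1, and Arntl fall in all 4 mice by a smaller factor, and in Input the lines of Sgk1 and Tsc22d3 fall by less than in TRAP.

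In Input no member was called by edgeR between cells with and without inhibitors, beside 0.311% of all genes, with 1 member at an unadjusted p under 0.05 and 0 called by DESeq2 and by limma. Sgk1 was at 680.2, 579, 478, and 533 CPM without and 669, 498, 401, and 457 CPM with inhibitors in Input (-0.17 ± 0.15), and Tsc22d3 at 496, 572, 434, and 449 CPM and 391, 379.7, 334, and 402 CPM (-0.38 ± 0.14). Both were lower with inhibitors in 4 of 4 mice, by less than in TRAP. The difference between the fractions was tested as an interaction and called for Sgk1 (-1.45 ± 0.22, edgeR, adjusted p = 3.31e-04) and Tsc22d3 (-1.03 ± 0.22, adjusted p = 0.0371), 2 of 8 genes beside 0.144% of all genes. The call of Tsc22d3 was lost on leaving out each of the mice 156, 157, 1361, and 1362 in turn, with log2 values of -1.17, -1.10, -0.99, and -0.87 and an adjusted p of up to 0.501. The microglial marker sum was 1897 to 3274 CPM in Cell (-) Inhib-Input against 12701 to 15185 CPM in Cell (-) Inhib-TRAP.

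Of the glucocorticoid targets outside the members, 0 of 23 were called higher and 3 lower with inhibitors in TRAP, beside 0.637% of all genes called in either direction, with a median of -0.44 against -0.03 on the log2 scale for all genes. Dusp1 went from 2229 to 46.5 mean CPM (-5.58 ± 0.26, edgeR, adjusted p = 6.05e-11), and Nfkbia, an inhibitor of NF-kappa B that NF-kappa B itself also induces, fell by 4.76-fold (edgeR, adjusted p = 9.73e-08). Txnip changed by -1.15 ± 0.12 on the log2 scale (edgeR, adjusted p = 9.99e-06). Of the 19 clock genes and the 13 genes of the receptor group 0 were called in either direction by edgeR, with 2 and 1 of them at an unadjusted p under 0.05 and 1 and 0 called by DESeq2 and 0 and 0 by limma. In Input, 1 of 24 glucocorticoid targets, Dusp1 again, was called lower with inhibitors (-3.16 ± 0.18, edgeR, adjusted p = 1.25e-09).

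Against tissue, the cells made with inhibitors still had more Sgk1 and less Nr1d1 and Dbp. The Tissue mice were not those of the cells here, so that mouse and preparation cannot be told apart in this and the next comparisons. In Tissue-TRAP, Sgk1 was at 87.7, 117, 105, and 115 CPM in mice 946, 947, 948, and 949. Against it, Sgk1 was 3.12 ± 0.15 in Cell (-) Inhib-TRAP (edgeR, adjusted p = 2.15e-12) and 1.51 ± 0.14 in Cell (+) Inhib-TRAP (adjusted p = 1.87e-08), and both groups stood above Tissue-TRAP without overlap. Tsc22d3, at 177, 236, 184, and 137 CPM in Tissue-TRAP, was 2.22 ± 0.17 without inhibitors (edgeR, adjusted p = 7.69e-10), and with them 0.82 ± 0.16 (adjusted p = 1.69e-04), under 2-fold and with overlapping groups. Nr1d1 went from 229, 215, 201, and 198 CPM in Tissue-TRAP to 43.9, 35.7, 40.4, and 24.9 CPM without and 31.4, 26.2, 31.7, and 23.3 CPM with inhibitors. Dbp went from 118, 102, 126, and 97.1 CPM to 48.8, 25.7, 33.8, and 21.7 CPM and 44.6, 27.2, 34.7, and 18.7 CPM. For both genes the 8 cell libraries lay below the 4 tissue libraries. Nr1d1 changed by -2.49 ± 0.23 without and -2.85 ± 0.24 with inhibitors, and Dbp by -1.72 ± 0.27 and -1.76 ± 0.27 (all called, edgeR). In all, 6 of 8 members were called without inhibitors, beside 53.1% of all genes, and 4 of 8 with them, beside 52.8%. Fkbp5 was above Tissue-TRAP by 0.92 without and 0.55 with inhibitors on the log2 scale, under 2-fold in both and not called. Per1 was called without inhibitors only (1.05 ± 0.19 against 0.38 ± 0.19), and Per2 lower in both (-1.07 ± 0.31 and -1.17 ± 0.31), but the calls of Per1 and Per2 without inhibitors were lost on leaving out mouse 1362 (0.77 and -0.88). The call of Per1 was also lost without Tissue mouse 948 (0.96), and that of Per2 without mouse 157 (-0.998) or Tissue mouse 946 (-0.93). The neuronal marker sum was 5932 to 7189.9 CPM in Tissue-TRAP, 77.2 to 174 CPM without, and 46.8 to 159 CPM with inhibitors; the microglial sum was 2139 to 2462 CPM in Tissue-TRAP and the endothelial sum 163 to 255 CPM, both below the cells. The part of these sums in the values against tissue was not tested.

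In Input, 3 of 8 members were called in Cell (-) Inhib against Tissue, beside 44.7% of all genes, and 4 of 8 in Cell (+) Inhib, beside 45.6%. Sgk1 was 1.85 ± 0.16 and 1.68 ± 0.16, Tsc22d3 1.46 ± 0.14 and 1.08 ± 0.14, and Per2 -1.49 ± 0.20 and -1.70 ± 0.20, called both without and with inhibitors (edgeR). Nr1d1, at -0.92 ± 0.12 and -1.01 ± 0.12, lay on either side of the 2-fold threshold. Its call with inhibitors was lost without mouse 156 (-0.94) or Tissue mouse 946 (-0.997), and without mouse 157 it was called in cells made without inhibitors (-1.001). That of Tsc22d3 with inhibitors was lost without Tissue mouse 949 (0.97). In Input, unlike TRAP, Dbp was 0.02 ± 0.13 and -0.17 ± 0.13 and overlapped tissue in both. Fkbp5 was not called in either, at 90.4 mean CPM without and 84.8 mean CPM with inhibitors, against 49.5 mean CPM in Tissue-Input. The microglial marker sum was 82 to 92.7 CPM in Tissue-Input, 1897 to 3274 CPM without, and 2548 to 3825 CPM with inhibitors. In the same order the endothelial sum was 66.7 to 73.3 CPM, 1423 to 1849 CPM, and 1365 to 2285 CPM. The neuronal sum was 6630 to 6835 CPM, 360.2 to 668 CPM, and 257 to 758 CPM. The part of these sums was not tested.

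**Figure D4:**
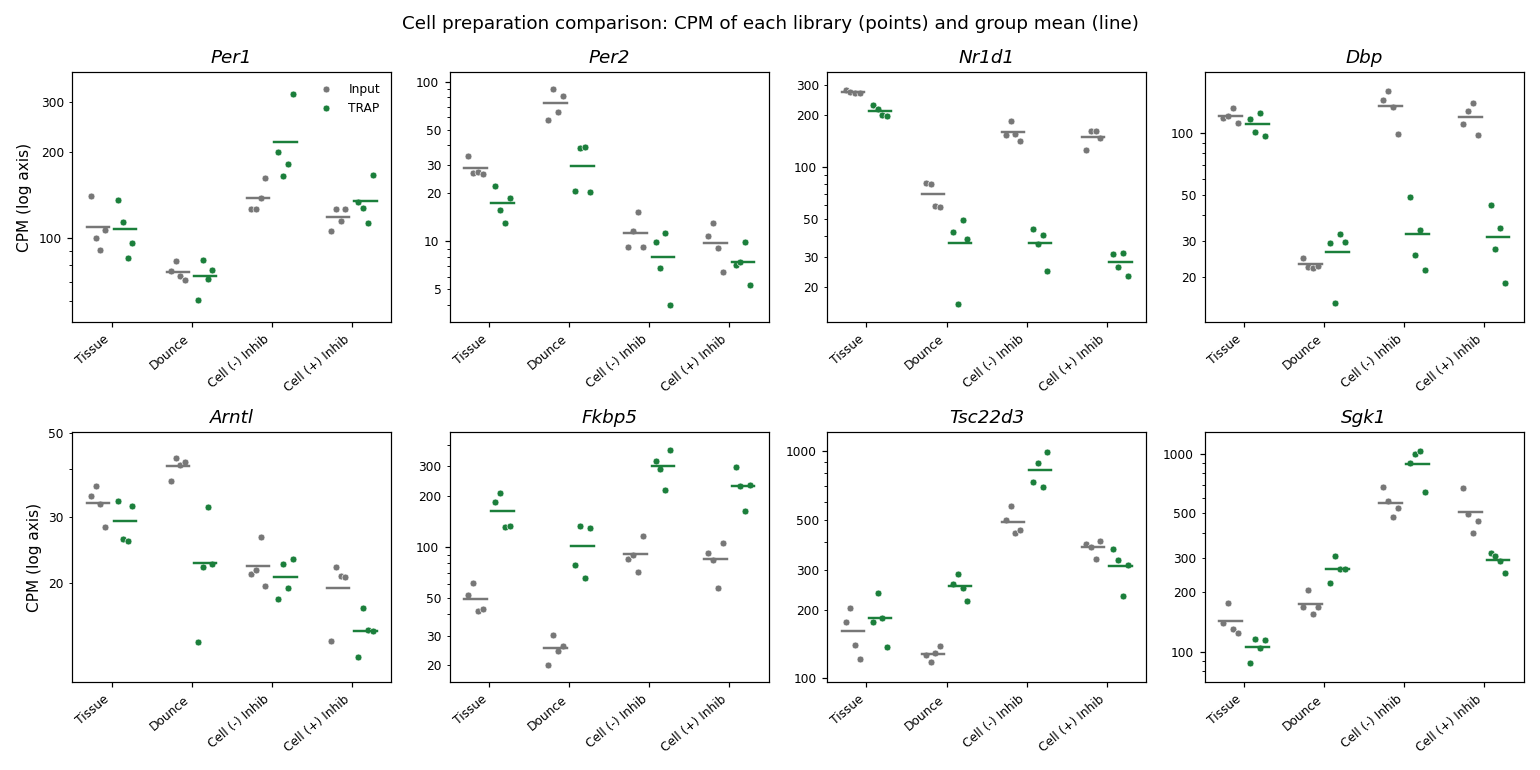
Level of each of the 8 genes in every library of the cell preparation comparison, as CPM on a log axis, by preparation along the horizontal axis and by fraction in colour; each point is 1 library and each short line is a group mean. Sgk1 is lower with inhibitors than without in TRAP, Nr1d1 and Dbp are lower in all TRAP preparations of cells than in tissue, and Per2 is highest in Dounce.

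The Dounce preparation had less Sgk1, Tsc22d3, Per1, and Fkbp5 than the cells made with enzymes and no inhibitors, and more Per2. In Dounce-TRAP against Cell (-) Inhib-TRAP 5 of 8 genes were called, beside 28.7% of all genes. The share of called genes that was higher in Dounce-TRAP was 72.04% by edgeR, 58.5% by limma, and 83.2% when each library had to hold 10 counts or more of a gene. In mice 179, 180, 181, and 182 in that order, Sgk1 was at 224, 305, 264, and 261 CPM in Dounce-TRAP (-1.75 ± 0.14, edgeR, adjusted p = 1.49e-08). Tsc22d3 was at 259, 288, 250.4, and 219.7 CPM (-1.69 ± 0.17, adjusted p = 1.41e-07). Both ranges lay below all Cell (-) Inhib-TRAP values and overlapped those of Cell (+) Inhib-TRAP. Per1 was at 60.5, 83.8, 71.8, and 76.8 CPM (-1.55 ± 0.20, adjusted p = 3.40e-06) and Fkbp5 at 78.6, 133, 65.6, and 129 CPM (-1.55 ± 0.23, adjusted p = 2.43e-05), both below all cells made with enzymes. Against Cell (+) Inhib-TRAP, Sgk1 was -0.14 ± 0.14 and Tsc22d3 -0.29 ± 0.16, not called, Per1 was -0.88 ± 0.20, under 2-fold, and Fkbp5 was -1.17 ± 0.23 and called (adjusted p = 3.70e-04), 2 of 8 genes with Per2 beside 29.1% of all genes.

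Per2 was at 20.6, 38.5, 39.2, and 20.4 CPM in Dounce-TRAP, above all Cell (-) Inhib-TRAP values, which were 9.87, 6.82, 11.3, and 4.01 CPM (1.89 ± 0.32, edgeR, adjusted p = 7.06e-05). In Input the distance was larger, with 57.6, 90.1, 65.3, and 81.3 CPM in Dounce-Input and 9.27, 11.5, 15.3, and 9.25 CPM in Cell (-) Inhib-Input (3.05 ± 0.20, adjusted p = 7.75e-11), and Dounce-Input was also above Tissue-Input, at 34.3, 27, 27.2, and 26.6 CPM (1.56 ± 0.19, adjusted p = 4.01e-07). Arntl in Dounce-Input was at 37.2, 42.9, 41.1, and 41.9 CPM, above Cell (-) Inhib-Input at 21.1, 21.7, 26.5, and 19.7 CPM (1.22 ± 0.14, edgeR, adjusted p = 1.56e-07). Dbp in Dounce-Input was at 24.8, 22.4, 22.2, and 22.7 CPM, below Tissue-Input at 118, 121, 132, and 112 CPM (-2.18 ± 0.14, edgeR, adjusted p = 4.75e-11) and below Cell (-) Inhib-Input (-2.20 ± 0.14, adjusted p = 3.52e-11). Nr1d1 in Dounce-Input was also below Tissue-Input (-1.75 ± 0.13, adjusted p = 2.28e-10). In Dounce-Input against Tissue-Input 3 of 8 genes were called, beside 50.2% of all genes, and against Cell (-) Inhib-Input 6 of 8, beside 56.8%. Against Cell (-) Inhib-Input, 50.6% of the called genes were higher in Dounce-Input, and 39.2% with both fractions in 1 fit, where Arntl (0.87) was not called. Arntl against Tissue-Input (0.53 ± 0.14) and Nr1d1 against Cell (-) Inhib-Input (-0.83 ± 0.12) were under 2-fold. The other genes called against Cell (-) Inhib-Input were Sgk1 (-1.35 ± 0.16), Tsc22d3 (-1.58 ± 0.14), and Fkbp5 (-1.49 ± 0.19), all lower (edgeR). The neuronal marker sum was 2679.8 to 3027 CPM in Dounce-Input and 360.2 to 668 CPM in Cell (-) Inhib-Input. The microglial sum was 587 to 958 CPM in Dounce-Input, 82 to 92.7 CPM in Tissue-Input, and 1897 to 3274 CPM in Cell (-) Inhib-Input. The oligodendrocytic sum was 5293.5 to 5988 CPM, 3925 to 4875 CPM, and 9522 to 23303 CPM in the same order. The blood cell sum was 7031 to 8110.3 CPM in Dounce-Input, 96.2 to 174 CPM in Tissue-Input, and 3558 to 8332 CPM in Cell (-) Inhib-Input. The astrocytic sum was 1041 to 2805 CPM, 3866 to 4159 CPM, and 6773 to 10559.5 CPM in the same order, and the endothelial sum 28.1 to 32.5 CPM, 66.7 to 73.3 CPM, and 1423 to 1849 CPM. The part of these sums was not tested. RNA integrity was not analysed here, and the study reports that its average was lowest in Dounce-Input. Its part in these values was not tested.

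In Dounce-TRAP against Tissue-TRAP 3 of 8 genes were called, beside 50.3% of all genes: Sgk1 higher (1.37 ± 0.14, edgeR, adjusted p = 1.06e-07), and Nr1d1 (-2.51 ± 0.24, adjusted p = 4.24e-08) and Dbp (-2.02 ± 0.29, adjusted p = 5.36e-06) lower. Nr1d1 was at 41.8, 16, 48.9, and 38 CPM and Dbp at 29.3, 14.9, 32.2, and 29.6 CPM, overlapping the cells made with enzymes, from which they did not differ detectably (-0.02 ± 0.24 and -0.31 ± 0.29 against Cell (-) Inhib-TRAP). The neuronal marker sum was 991 to 1796 CPM in Dounce-TRAP and the endothelial sum 54.3 to 68.8 CPM, against 529 to 1199 CPM in Cell (-) Inhib-TRAP; their part was not tested. Of the 19 other clock genes, 5 were called higher and 2 lower in Dounce-TRAP than in Cell (-) Inhib-TRAP, among them Per3, a further PER gene, by 1.83 ± 0.25 (edgeR, adjusted p = 7.67e-06). Of the 23 glucocorticoid targets, 2 were called higher and 10 lower, beside 20.7% of all genes called higher and 8.03% lower, led by Dusp1, at 2229 mean CPM in Cell (-) Inhib-TRAP and 21.5 in Dounce-TRAP.

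**Figure D5:**
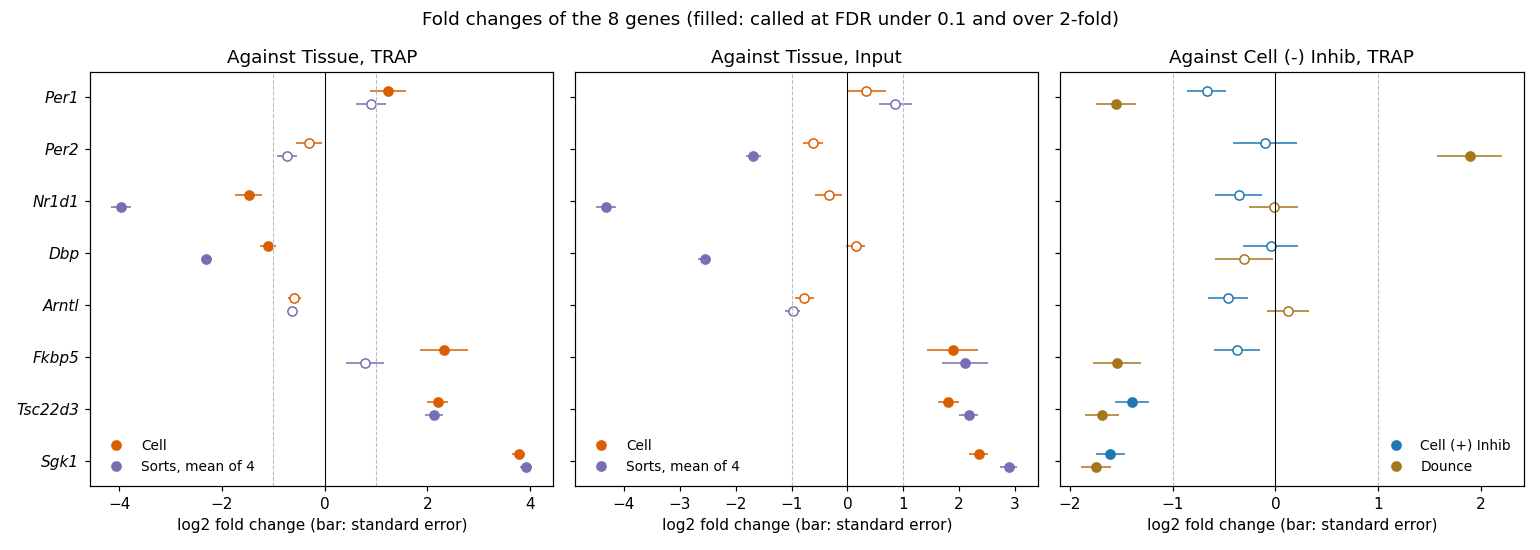
Log2 fold change of each of the 8 genes with its standard error in Cell and in the mean of the 4 sorts against Tissue, for TRAP and for Input, and in Cell (+) Inhib-TRAP and Dounce-TRAP against Cell (-) Inhib-TRAP; filled points were called and dashed lines mark 2-fold either way. Against tissue Sgk1 lies farthest to the right in both fractions, and Nr1d1 lies farthest to the left in both TRAP comparisons, whereas against Cell (-) Inhib-TRAP Sgk1 and Tsc22d3 lie to the left in both comparisons.

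Between TRAP and Input of the dissociated cells, Fkbp5 was higher in TRAP in each preparation: 1.73 ± 0.22 without inhibitors, 1.44 ± 0.22 with them, and 2.01 ± 0.24 in Dounce (edgeR, adjusted p = 4.24e-08, 1.09e-06, and 8.36e-09). Dbp and Nr1d1 were called lower in TRAP without inhibitors (-2.05 ± 0.22 and -2.13 ± 0.19) and with them (-1.93 ± 0.22 and -2.40 ± 0.19), but not in Dounce (0.18 ± 0.24 and -0.98 ± 0.20), where Per2 was (-1.31 ± 0.26). The members called numbered 3 of 8 in Cell (-) Inhib, beside 47.3% of all genes, 3 of 8 in Cell (+) Inhib, beside 45.6%, and 2 of 8 in Dounce, beside 47.4%. Whether this distance between the fractions differed between Dounce and the other preparations was not tested. Sgk1 changed sides with the inhibitors: it was 0.65 ± 0.15 in TRAP against Input without them and -0.80 ± 0.15 with them, a difference that is the interaction given above.

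For a description of likeness, Pearson's r of log2(CPM + 1) was taken over the 24 TRAP libraries of the sort comparison, which share the step from tissue to cells, with r over the 16 TRAP libraries of the cell preparation comparison beside it. Sgk1 was most like Havcr2 (0.995 and 0.784) and Tgfbr1 (0.995 and 0.800), Tsc22d3 like Cebpb (0.969 and 0.940), and Nr1d1 like Spry2 (0.972 and 0.841). Dbp was most like Fgf1 (0.974 and 0.879), Arntl like Vdr (0.886 and 0.578), and Per2 like Dip2a (0.817 and 0.739). Per1 was most like Rnf169 (0.885 and 0.592), and Fkbp5 like Slc10a6 (0.914 and 0.602). Among the members themselves, Nr1d1 and Dbp had an r of 0.952 in the sort comparison and 0.957 in the cell preparation comparison, and Per1 and Fkbp5 0.810 and 0.904.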

How the data were processed

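Input and TRAP RNA of 80 libraries was read from 2 tables, 48 libraries of the sort comparison and 32 of the cell preparation comparison. The authors trimmed the reads of stranded poly(A) libraries, aligned them by strand to mm10, removed duplicates, and quantified genes in Strand NGS, and their tables list a gene where each sample of 1 group or more holds over 5 reads of it. The deposited expected counts (33.4% whole numbers in the first table and 21.2% in the second) were rounded to whole numbers. The deposited log2 values, which the authors normalized by DESeq2 and set relative to the median of Tissue-Input, were used in an alternative only. In both tables, 23 gene symbols that had been turned into dates were restored by their Entrez identifier.

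Groups and mouse numbers came from the sample titles. Counts were fitted with edgeR 4.0.16 in R 4.3.3 (quasi-likelihood test, TMM normalization, Benjamini-Hochberg adjustment over all genes tested, genes whose counts exceed 5 throughout 1 group or more), within a fraction for comparisons between preparations and over both fractions for TRAP against Input and for interactions. A gene was called at an adjusted p under 0.1 and a fold change over 2. In the F test across sorts the fold change is that between the highest and the lowest sort. The standard error (SE) is the log2 fold change divided by the root of the F statistic. CPM were normalized by TMM over both fractions of a table. The scripts were tested on simulated data. Genes outside the members were named from 3 lists (clock, glucocorticoid targets, and receptor with chaperones) as at most the 3 called genes with the largest change that exceeded 3 counts in a library of each group, and genes most like a member by Pearson's r. A microglial marker of the fixed list is not reported here and is left out of the marker sum. The 8 members and all lists were chosen with earlier results of these data known.

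Library depth was 7129464 to 20168116 counts in the first table and 2471448 to 14650287 in the second, and the counts of the members in a library ran from 22.5 to 21967. Alternatives were DESeq2's size factors, the Wald test of DESeq2 1.42.0, limma 3.58.1 on the deposited log2 values, no filter, at least 10 counts in every sample, only the groups compared, both fractions in 1 fit, the mouse as a block, each library left out in turn, and, added after seeing the data, the sorted libraries of a mouse summed to 1. The mouse was not a term of the reported fits. As a check of the pairing by mouse, the correlation of deviations from the group means over genes was 0.062 to 0.160 between Cell-TRAP and Tissue-TRAP libraries of the same mouse, -0.026 to 0.047 between those of Input, 0.112 to 0.440 between Cell (-) Inhib-TRAP and Cell (+) Inhib-TRAP, and -0.040 to 0.103 between those of Input. An earlier table of 24 libraries was not used here, and no other columns of samples were left out.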

Additional observations from a re-analysis of the deposited data

Results flagged for a closer look

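Chance alone would set about 1 in 20 groups apart, or 7 of the 144 groups of a gene that were checked, and 6 libraries stood far from the others of their group. For Fkbp5, 4 of these were the 2 fractions of 2 mice. Mouse 823 was at 376 CPM in Tyto-Input, where the others were at 83.8 to 123 CPM, and at 403 CPM in Tyto-TRAP, where the others were at 95.6 to 138 CPM. Mouse 992 was at 349.6 CPM in FACSAria-Input (others 100.7 to 132 CPM) and at 405 CPM in FACSAria-TRAP (others 105 to 140.1 CPM). Sgk1 in autoMACS-TRAP was at 1186 CPM in mouse 73 and at 976 to 982 CPM in the others. Per2 in Tissue-Input of the cell preparation comparison was at 34.3 CPM in mouse 946 and at 26.6 to 27.2 CPM in the others.

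The change between preparations differed between the fractions for 5 pairs of gene and contrast, each by the interaction term of edgeR's quasi-likelihood test. From Tissue to Cell the log2 difference of TRAP from Input was 1.51 for Sgk1 (adjusted p = 7.57e-08), -1.17 for Dbp (adjusted p = 4.76e-05), and -1.06 for Nr1d1 (adjusted p = 0.0164). From Cell (-) Inhib to Cell (+) Inhib it was -1.45 for Sgk1 (adjusted p = 3.31e-04) and -1.03 for Tsc22d3 (adjusted p = 0.0371), the latter not called on leaving out any of the 4 mice.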

How the results depend on the processing

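The number of the 8 genes called was recomputed under 373 combinations of 22 comparisons and an alternative and stayed within 1.5 times the reported number in 367. The other 6 left out a mouse. Across the 4 sorts the number of genes called ranged from 0 to 1 in TRAP and from 0 to 1 in Input over the libraries left out, with Fkbp5 called without Tyto mouse 823 in both. For the interaction of fraction and inhibitors it ranged from 1 to 2, with Tsc22d3 lost without each of the 4 mice. Of 2952 values of single genes, 2905 stayed on their side of the thresholds, 31 were no longer called, 16 became called, and 0 of the called values changed sign. With the mouse as a replicate block, 6 of the 8 genes were called in Cell-TRAP against Tissue-TRAP and 2 in Cell (+) Inhib-TRAP against Cell (-) Inhib-TRAP, and the block changed no call of these 8 genes in any comparison. Summing the sorted libraries of a mouse to 1, which was added after seeing the data, changed none either.

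Calls lost or gained with other processing and not named above were Arntl in Cell-TRAP against Tissue-TRAP (-1.02 by limma, called), and in Sort-TRAP against Tissue-TRAP Per2 (-1.08 to -1.24, called by DESeq2, with its size factors, by limma, and with a minimum of 10 counts in every sample) and Arntl (-1.05 to -1.09, called by limma and with that minimum). They were also Per2 in Sort-Input against Cell-Input (-0.84 with both fractions in 1 fit, lost), Fkbp5 in Cell (-) Inhib-TRAP against Tissue-TRAP (1.01 with only the groups compared, and 1.05 without mouse 1361 or Tissue mouse 947, called), Arntl in Cell (+) Inhib-TRAP against Tissue-TRAP (-1.12 with that minimum, called), and Nr1d1 in Dounce-Input against Cell (-) Inhib-Input (-1.18 with both fractions in 1 fit, called). In Cell (-) Inhib-TRAP against Tissue-TRAP the call of Per1 was lost with that minimum (0.85) and that of Per2 with only the groups compared (-0.98), and in Cell (+) Inhib-Input against Tissue-Input that of Nr1d1 with it (-0.97), by limma (-0.95), and with both fractions in 1 fit (-0.87). The cause was not tested.

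Counts of all genes called moved by more than 1.5 times mainly with the filter of at least 10 counts in every sample, which leaves fewer genes to test. With it, in TRAP, 4377 genes were called in Cell against Tissue (reported fit 8139), 4753 in sorted cells against Tissue (9409), 436 in sorted cells against Cell (3655), 4744 in Cell (-) Inhib (7837), 4597 in Cell (+) Inhib (7788), and 4651 in Dounce (7421) against Tissue, 1876 in Dounce against Cell (-) Inhib (4238), and 172 across the sorts (626). In Input the numbers were 3235 in Cell against Tissue (7259), 3062 in sorted cells against Cell (8173), 4530 in Cell (-) Inhib (7056) and 4600.0 in Cell (+) Inhib (7198) against Tissue, 32 with against without inhibitors (49), and 299 across the sorts (1168). Between TRAP and Input they were 925 in Tissue (1756), 2727 in Cell (7545), 224 in sorted cells (3002), and 2031 for the interaction of Cell and Tissue (5581). Fits of only the groups compared called 396 genes in TRAP and 483 in Input across the sorts, and 1463 between TRAP and Input of sorted cells. The block called 1452 genes there, 150 instead of 94 with inhibitors in TRAP, and 48 instead of 23 for the interaction with inhibitors, for which 13 to 15 were called without mouse 156, 1361, or 1362. Depth limits the Dounce-TRAP libraries most, with 2471448 to 4724538 counts.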

Other observations

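Per3, a PER gene outside the members, stood high in Dounce as Per2 did: it was at 109 ± 17.8 CPM (SD, n = 4) in Dounce-Input, 25.4 ± 1.75 CPM in Tissue-Input, and 21.4 ± 5.82 CPM in Cell (-) Inhib-Input of the cell preparation comparison, without overlap between Dounce and the others. In TRAP it was at 42.4 ± 9.64 CPM in Dounce, 21.5 ± 4.502 CPM in Tissue, and 11.9 ± 2.69 CPM in Cell (-) Inhib.

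Both tables hold Tissue libraries of mice 946, 947, 948, and 949, normalized separately and with different counts; whether they hold the same RNA is not given in the sources used here, so that 1 table is no independent repeat of the other. Fkbp5 in Tissue-TRAP was at 141, 147, 117, and 113 CPM in the sort comparison and at 184, 207, 131, and 134 CPM in the cell preparation comparison, and Tsc22d3 at 157, 153, 128, and 114 CPM and 177, 236, 184, and 137 CPM, in the order of these mice. Mice 946 and 947 had the higher Fkbp5 in both tables.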
